A study of Moricandia arvensis and Moricandia suffruticosa and Moricandia moricandioides with 78 samples.

Results

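Abscisic acid (ABA) is the hormone through which leaves register water shortage, and 10 genes of its synthesis and breakdown were followed here in Moricandia, wild relatives of the brassica crops. They were chosen by their Arabidopsis identifiers as NCED2 (AT4G18350), NCED3 (AT3G14440), NCED5 (AT1G30100), NCED9 (AT1G78390), ABA1 (AT5G67030), ABA2 (AT1G52340), AAO3 (AT2G27150), CYP707A1 (AT4G19230), CYP707A2 (AT2G29090) and CYP707A3 (AT5G45340). All 10 were among the 33602 features in every library. The study asked whether C2 photosynthesis, a form intermediate between C3 and C4, helps leaves through drought and recovery. Mature leaves of M. moricandioides (Mmo, C3, Osnabrück line 04-0393-10-00), M. arvensis (Mav, C2, MOR1 of IPK Gatersleben) and M. suffruticosa (Msu, C2, tetraploid, Kew 0105433) gave 78 RNA-seq libraries.

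Droughted plants were sampled when stomatal conductance was at 50% (T1) or 10% (T2) of its starting value. Rewatered plants (RW) were previously droughted plants that were given water again, and the labels list their conductance as 100%. In the paper, rewatered leaves were taken once soil water was equal in droughted and control plants. The paper also reports a faster recovery of conductance in Mav than in Mmo and Msu. Whether conductance had recovered in full in each species thus cannot be told from the labels. Watered controls were sampled alongside at T1, T2 and RW, and plants of T0 were sampled before water was withheld. Each of the 21 groups held one line of one species, so a species difference could not be told apart from a difference between lines. The T0 libraries of Mmo were in lane 5, those of Msu in lane 3 and those of Mav in lanes 1 and 7. T2 droughted Mmo was in lane 6 and T2 droughted Mav in lanes 2 and 7. Lane and species thus cannot be told apart at T0 or in T2 droughted leaves. Mmo had 3, 3 and 4 libraries in the T1 droughted, T2 droughted and rewatered groups, and 4, 4, 2 and 4 in the T0, T1, T2 and RW controls. Mav had 1, 5 and 4 in the droughted and rewatered groups, and 5, 4, 5 and 5 in the controls. Msu had 3, 4 and 4, and 4, 4, 3 and 3 in the controls. The libraries are called by the replicate names of the labels, such as M20s.

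In the leaf, ABA1 (zeaxanthin epoxidase) makes the epoxycarotenoids from which ABA is built. NCED enzymes (9-cis-epoxycarotenoid dioxygenases) cleave them to xanthoxin, the step held to limit the rate, and NCED3 is the member known for drought-stressed Arabidopsis leaves. ABA2 turns xanthoxin into abscisic aldehyde and AAO3 oxidises the aldehyde to ABA. CYP707A enzymes, the ABA 8'-hydroxylases, start its breakdown; in Arabidopsis, CYP707A2 is best known from seeds and CYP707A3 from vegetative tissue, where it responds to drought and to rehydration.

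The libraries held between 22346621 and 41675513 estimated counts. Of 116 pairs of libraries within a group, 20 differed by less than 4 times the variance expected from counting, with ratios of 1.61 to 3.92, so the number of distinct profiles was smaller than that of libraries: 2 for T2 droughted Mmo, 4 for T2 droughted Mav, and 2 for the rewatered plants of each species. At T0 the distinct profiles numbered 3 for Mmo, 5 for Mav and 2 for Msu. The T2 libraries S5s and S8s of droughted Msu were close to S33c and S36c of the Msu controls of the same time, with ratios of 1.79 to 2.21, although their labels give opposite treatments. These 4 libraries, the RW controls S5c, S6c and S7c of Msu and T2 droughted A37s of Mav resembled the T0 mean of Mmo more than that of their own species, A37s by a small margin (r across genes of 0.836 with Mmo and 0.835 with Mav). They were kept under their labels. Results of the members that rest on them are given with and without them where such a fit was made. Fits of other pathway genes are given with them only. Mesophyll genes (RBCS1A, RCA, LHCB1.3 and CAB3) were abundant in all libraries, and the root markers NRT2.1 and CASP1 did not exceed 7 counts. The seed marker CRA1 reached 2788 counts and the flower marker PI 939 counts. Summed seed markers were at up to 114 CPM in T1 controls and 92.5 CPM in RW controls of Mmo, and below 7 CPM in all other groups. Summed flower markers were highest in RW controls of Mav, at up to 34.3 CPM.

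Levels are given as CPM (counts scaled to library size, with TMM factors over all libraries) within a gene, and as TPM (also scaled to gene length) between genes. A gene was called changed at a Benjamini-Hochberg adjusted p below 0.05 in edgeR's quasi-likelihood test and a change above 2-fold, a log2 fold change beyond 1. Log2 fold changes are given ± SE. In leaf tissue, fewer cells of a type and less RNA per cell cannot be told apart. Reads were counted on Arabidopsis genes, so both homoeologs of tetraploid Msu fall on one gene, and similar NCED or CYP707A genes can share reads.

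At T0, before drought, Mmo had less NCED3, NCED5 and CYP707A1 than both C2 species and more CYP707A2. NCED3 stood at 8.03, 9.66, 8.99 and 9.80 CPM in Mmo, against 55.9, 67.7, 35.7, 48.1 and 47.2 CPM in Mav and 55.7, 57.2, 25.2 and 61.9 CPM in Msu. No Mmo library reached the lowest of the C2 species. The log2 fold changes were -2.51 ± 0.21 (adjusted p = 1.79e-05) for Mmo over Mav and -2.50 ± 0.28 (adjusted p = 1.25e-04) for Mmo over Msu. Between the C2 species NCED3 differed by 0.02 ± 0.27 on the log2 scale (adjusted p = 0.968). In the later watered controls (T1, T2 and RW), the NCED3 range of Mmo overlapped with those of Mav and Msu. The species were not tested against each other in those controls.

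NCED5, a minor family member in Arabidopsis leaves, followed the same order at a lower level, with 0.185 to 0.875 CPM in Mmo, 3.03 to 5.57 CPM in Mav and 2.74 to 6.84 CPM in Msu. Its log2 fold changes were -3.04 ± 0.44 (adjusted p = 3.74e-04) for Mmo over Mav and -3.50 ± 0.48 (adjusted p = 3.75e-04) for Mmo over Msu. NCED9, known from Arabidopsis seeds, went the other way. Mmo held 106, 34, 48 and 99 counts of it, against 0, 0, 40, 0 and 0 in Mav and 1, 0, 0 and 1 in Msu, so only A45 of Mav had more than a trace among the C2 libraries. Pooled over libraries, Mmo had 146-fold (exact 95% interval 40.1 to 1212) the NCED9 of Msu (adjusted p = 1.37e-04), and Mmo over Mav was not called (3.41 ± 1.29, adjusted p = 0.0526), but was without A45 (9.30, adjusted p = 7.53e-04). Such intervals cover counting error only.

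NCED2 was close to absent in leaves: its highest count in any library was 33, 27 of the 78 libraries had none, and it passed the filter on low counts in no comparison. The other 9 genes were tested in most comparisons.

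Of the breakdown genes, CYP707A2 was at 101, 332, 335 and 85.3 CPM in Mmo, against 20.1, 28.1, 31.97, 113 and 74.9 CPM in Mav and 50.7, 50.0, 59.5 and 45.5 CPM in Msu. The near-identical M3s and M4s were the higher pair of Mmo libraries, and A46 of Mav lay above M1c and M12c. The log2 fold changes were 1.97 ± 0.58 (adjusted p = 0.0184) over Mav and 2.01 ± 0.45 (adjusted p = 0.00538) over Msu, and the first was lost without M3s (1.68, adjusted p = 0.0541) or M4s (1.67, adjusted p = 0.0546). CYP707A1 was lower in Mmo, with 2.73 to 9.16 CPM against 10.4 to 45.2 CPM in Mav (-1.71 ± 0.49, adjusted p = 0.0158) and 10.2 to 26.1 CPM in Msu (-1.17 ± 0.42, adjusted p = 0.0465). The Msu contrast rested on single libraries, and was not called without any one of 7 of the 8 (adjusted p = 0.0520 to 0.126). CYP707A3 was lowest in Msu, at 0.198 to 0.605 CPM, against which Mmo (1.16 to 3.73 CPM) differed by 2.98 ± 0.49 (adjusted p = 0.00102) and Mav (0.735 to 20.0 CPM) by 3.93 ± 1.10 (adjusted p = 0.0274). The Mav call was lost without S38 (3.95, adjusted p = 0.0757), S39 (3.73, adjusted p = 0.0832) or S43 (3.79, adjusted p = 0.0820).

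AAO3 was lower in Mav than in Msu (5.49 to 18.8 against 16.7 to 31.7 CPM, -1.37 ± 0.33, adjusted p = 0.0141), although A4 of Mav lay above S42 of Msu. Without A4, AAO3 was also called higher in Mmo than in Mav (1.15, adjusted p = 0.00353). ABA1 and ABA2 were called in none of the 3 pairs of species, with ABA2 higher in M12c (31.02 CPM) than in the other Mmo libraries (8.47 to 10.7 CPM). Without M12c, ABA2 was called lower in Mmo than in Mav (-1.52, adjusted p = 8.34e-04) and in Msu (-1.45, adjusted p = 2.71e-04). Both calls of Mav against Msu were lost with near-identical libraries summed (AAO3 -1.21 ± 0.43, adjusted p = 0.156, CYP707A3 3.67 ± 1.58, adjusted p = 0.231) and at an adjusted p below 0.01. In all, 1 member was called higher and 3 lower in Mmo than in Mav, where 14.4% of all genes tested were called higher and 17.4% lower. Against Msu, 3 were higher and 3 lower in Mmo, beside 15.4% higher and 16.9% lower of all genes tested. With near-identical libraries summed, the number of members called in Mmo fell from 4 to 3 against Mav and from 6 to 3 against Msu. In Mav against Msu, 1 was higher and 1 lower, and 7.77% of all genes tested were called higher and 6.7% lower. Some marker ranges did not overlap between species at T0. SAG12, a senescence gene, was at 13.1 to 4035 CPM in Mmo, 0.0268 to 1.43 CPM in Mav and 0 to 2.38 CPM in Msu. Guard cell sums (MYB60, FAMA, KAT1 and GC1) were at 153 to 161 CPM in Mmo, above Mav (49.5 to 124 CPM) and Msu (65.6 to 140.5 CPM). Over all libraries GC1 reached 966 CPM, and MYB60, FAMA and KAT1 at most 43.1, 46.4 and 12.1 CPM. A high guard cell sum can therefore rest mainly on GC1, here and below. Mesophyll sums were at 27137 to 31337 CPM in Msu, below Mmo (43344 to 50352 CPM) and Mav (34688 to 51378 CPM). What part these markers had was not tested.

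Per length, the epoxidase was by far the most abundant transcript of the route. At T0, ABA1 averaged 919.9 ± 263 TPM in Mmo, 998 ± 675 TPM in Mav and 1042 ± 238 TPM in Msu (SD, n = 4, 5 and 4). Its levels in the 3 species lay within that spread. NCED3 averaged 10.99 ± 1.09 TPM in Mmo, 66.8 ± 18.3 TPM in Mav and 69.5 ± 22.7 TPM in Msu, and CYP707A2 217 ± 143 TPM, 55.2 ± 37.01 TPM and 53.2 ± 6.98 TPM in the same order. At T0 the CYP707A2 level of Mmo was thus above the NCED3 level in each library, whereas in Mav and Msu at T0 their ranges overlapped.

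At severe drought in Mav, NCED3 and AAO3 rose, NCED5 and CYP707A2 fell, and CYP707A3 rose by a call that 1 library carried. NCED3 was at 277, 97.6, 119.9, 389 and 290.2 CPM in droughted Mav, against 26.4, 15.4, 17.6, 9.80 and 20.4 CPM in control Mav. Every droughted library was above every control, and the log2 fold change was 3.69 ± 0.42 (adjusted p = 5.86e-05), about 12.9-fold. These T2 controls lay below all T0, T1 and RW controls of Mav for NCED3, so the size of the change depends on the control used. AAO3, the last enzyme before ABA, was at 81.2, 37.7, 41.9, 53.4 and 87.6 CPM in droughted plants and 14.7, 15.6, 12.7, 9.55 and 16.8 CPM in controls, again without overlap (2.098 ± 0.27, adjusted p = 1.21e-04).

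NCED5 nearly vanished, with 1, 0, 6, 5 and 3 counts in the droughted libraries, against 184, 111, 94, 76 and 52 in the controls. The fitted change was -4.93 ± 0.68 (adjusted p = 1.94e-04), and the pooled counts were 27.9-fold (exact 95% interval 16.8 to 50.2) higher in the controls. NCED3 and NCED5 thus moved in opposite directions in the same leaves. ABA1 was at 1224 to 1554 CPM in droughted and 637 to 1019.6 CPM in control plants, a difference below 2-fold (0.68 ± 0.17, adjusted p = 0.00665), and ABA2 at 15.4 to 22.4 and 15.2 to 37.98 CPM (-0.65 ± 0.23, adjusted p = 0.0389).

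Among the breakdown genes of Mav, CYP707A2 was at 16.1, 13.8, 19.8, 15.8 and 15.6 CPM in droughted leaves, against 41.4, 47.2, 34.7, 90.3 and 64.5 CPM in controls (-1.81 ± 0.26, adjusted p = 2.37e-04). The droughted libraries lay close together and below all controls. CYP707A3 was at 9.24, 5.29, 3.65, 63.1 and 9.70 CPM in droughted leaves and 6.44, 5.03, 3.93, 4.72 and 1.87 CPM in controls (2.01 ± 0.73, adjusted p = 0.0435). Its groups overlapped and its call rested on A37s, without which the log2 fold change was 0.64 (adjusted p = 0.231); it was also lost without any one of the 5 controls (adjusted p = 0.0564 to 0.0867). CYP707A1 (3.99 to 31.5 against 2.60 to 17.9 CPM) was not called (0.84 ± 0.64, adjusted p = 0.320). The calls of NCED3, NCED5, AAO3 and CYP707A2 were kept in each of the 10 fits that left out 1 library, A37s among them (NCED3 3.44 to 3.90, largest adjusted p 3.25e-04).

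Of the 9 members tested in T2 Mav, 3 were called higher and 2 lower, while 11.6% of all genes tested were called higher and 16.6% lower. The median log2 fold change of the tested members was 0.68, beside -0.01 over all genes tested. Other leaf signals moved in the same libraries: the summed mesophyll markers were at 9148 to 13596 CPM in droughted and 20650.0 to 38584 CPM in control Mav, and the senescence gene SAG12 at 52.6 to 608 and 0.233 to 2.66 CPM. The guard cell markers overlapped (63.4 to 145 and 48.9 to 159 CPM), as did SUC2 of phloem companion cells (246 to 411 and 154 to 309 CPM). Their part in the result was not tested.

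**Figure D1:**
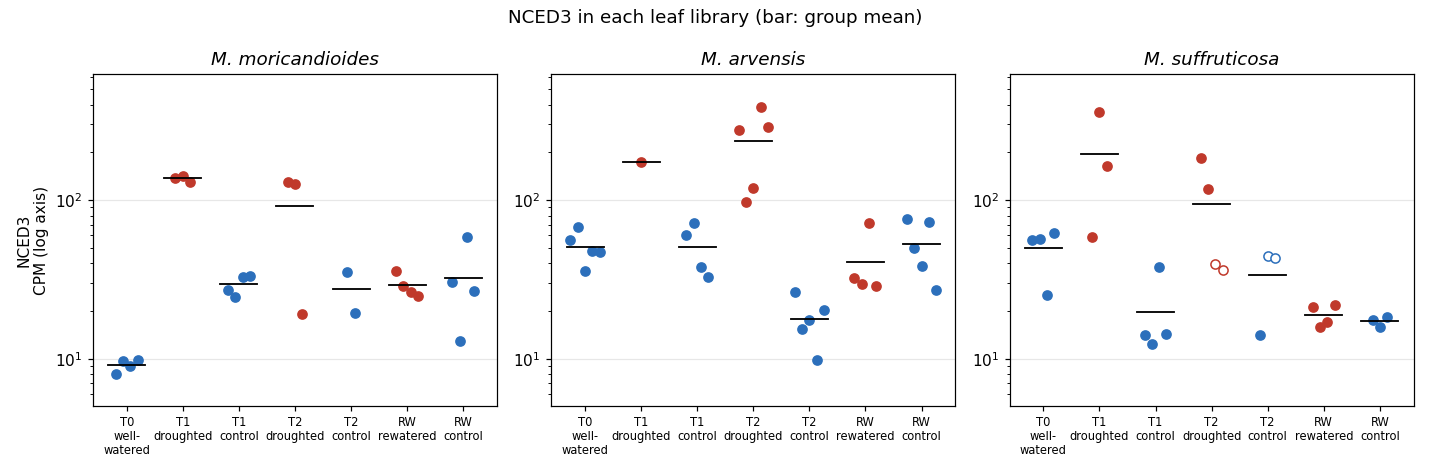
NCED3 in every library of the 3 species, in CPM on a log axis, by time and treatment; red points are droughted or rewatered plants, blue points watered controls, black bars group means, and open points the 4 near-identical T2 libraries of Msu. Droughted Mav at T2 lay at 97.6 to 389 CPM, above all its controls, whereas M20s of Mmo stayed at 19.2 CPM.

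In Mmo, no member was called at T2, and the 3 droughted libraries lay far apart. NCED3 was at 131 and 127 CPM in the near-identical M17s and M19s and at 19.2 CPM in M20s, against 35.5 and 19.4 CPM in the controls (1.73 ± 0.84, adjusted p = 0.282). M20s was also the lowest droughted library for ABA1 (690.3, 695 and 216 CPM in M17s, M19s and M20s), AAO3 (30.9, 30.4 and 13.9 CPM), CYP707A2 (104, 102 and 13.3 CPM), CYP707A3 (6.84, 7.29 and 1.06 CPM) and NCED9 (11.4, 9.77 and 2.20 CPM). It was the highest for CYP707A1 (8.12, 6.83 and 15.7 CPM, against 2.62 and 1.08 CPM in controls), the member nearest to a call (2.44 ± 0.59, adjusted p = 0.0773).

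ABA-responsive genes in M20s were mixed. RAB18, a dehydrin gene that ABA induces, was at 1412, 1264 and 2913 CPM in M17s, M19s and M20s and at 70.6 and 18.2 CPM in the controls, and HAI1, a phosphatase gene of ABA signalling, at 88.9, 81.2 and 136 CPM and 4.92 and 1.14 CPM. M20s was thus highest for both, while its NCED3 was at the level of the lower control. For RD29B, another ABA-induced gene, M20s was the lowest of the droughted libraries (595, 563 and 335 CPM in M17s, M19s and M20s, against 45.7 and 7.57 CPM in controls). ABCG25, an ABA exporter gene, was lower in M20s than in both controls (16.1, 14.9 and 6.26 CPM, against 9.72 and 8.84 CPM). These 4 genes were picked from the lists after their values were seen.

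Without M20s, 5 members were called higher in droughted Mmo: NCED3 at 2.21 (adjusted p = 0.0188), NCED9 at 2.24 (adjusted p = 0.00790), AAO3 at 1.05 (adjusted p = 0.0103), CYP707A1 at 1.99 (adjusted p = 0.0497) and CYP707A3 at 2.46 (adjusted p = 0.00904). The fit then set 2 near-identical libraries against 2 controls. With all libraries, 2 of the 9 tested members had an unadjusted p below 0.05, DESeq2 called 1 (CYP707A1), and 2.21% of all genes tested were called higher and 2.27% lower. SAG12 was at 13.8 to 27.6 CPM in droughted and 0.216 to 0.316 CPM in control Mmo, and mesophyll sums at 16802 to 29583 and 30252 to 36282 CPM, both without overlap. What part these markers had was not tested. Set against the 4 T0 controls in place of the T2 controls, NCED3 alone was called (3.35 ± 0.57, adjusted p = 0.00831). These T0 libraries lay below all later controls of Mmo for NCED3, so time since T0 and drought cannot be told apart there.

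**Figure D2:**
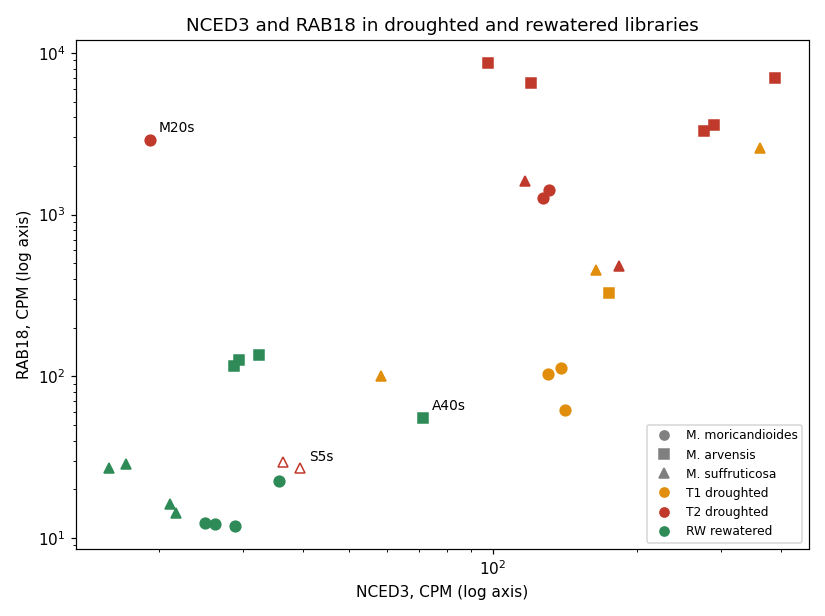
NCED3 (horizontal, CPM, log axis) and RAB18 (vertical, CPM, log axis) in each droughted or rewatered library; symbols give the species, colours the sampling point, and open triangles are S5s and S8s of Msu. M20s combined 19.2 CPM of NCED3 with 2913 CPM of RAB18, whereas S5s and S8s were low for both.

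At moderate drought (T1) in Mmo, NCED3 and ABA1 rose, and NCED5 and CYP707A3 fell. NCED3 was at 139, 142 and 130.5 CPM in droughted Mmo, against 27.2, 24.5, 32.7 and 33.4 CPM in controls (2.19 ± 0.14, adjusted p = 1.54e-04), and ABA1 at 871, 855 and 873 CPM, against 373, 465, 379 and 385 CPM (1.08 ± 0.15, adjusted p = 0.00210). In both genes the groups were well apart. AAO3, at 38.2, 50.6 and 38.6 CPM in droughted plants and 21.2, 5.84, 25.4 and 28.5 CPM in controls, did not overlap either but missed the threshold (1.04 ± 0.45, adjusted p = 0.115).

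NCED5 was at 0.561, 0.304 and 0.484 CPM in droughted Mmo at T1, against 0.954, 1.92, 0.856 and 0.933 CPM in controls (-1.39 ± 0.42, adjusted p = 0.0394). CYP707A3 was at 1.10, 2.08 and 1.48 CPM, against 3.18, 3.79, 3.39 and 2.83 CPM (-1.11 ± 0.27, adjusted p = 0.0184). Both calls were narrow: NCED5 was lost without M5c, M10c, M7s, M8s or M12s (adjusted p = 0.0546 to 0.1301) and CYP707A3 without M7s (-0.91, adjusted p = 0.0700) or M12s (-1.08, adjusted p = 0.0771). NCED9 was at 6.83, 7.88 and 7.16 CPM in droughted plants, while among controls M6c had 2.74 CPM and M5c, M9c and M10c had 24.9 to 32.1 CPM. It was called lower only without M6c (-2.02, adjusted p = 3.00e-06).

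Of 9 members tested at T1 in Mmo, 2 were called higher and 2 lower, and 6.72% of all genes tested were called higher and 11.1% lower. Markers moved in the same libraries without overlap: mesophyll sums were at 15704 to 16974 CPM in droughted and 20104 to 56424 CPM in control Mmo, and guard cell sums at 52.7 to 65.8 and 129.8 to 982 CPM. The highest of these guard cell sums was mostly GC1. SUC2 was at 233 to 303 CPM in droughted and 55.2 to 145 CPM in control plants, and SAG12 at 48.3 to 178 and 0.731 to 1.62 CPM. Their part in the result was not tested. After near-identical libraries were summed, NCED3 alone was called (2.27 ± 0.20, adjusted p = 0.0122). Mav had 1 droughted library at T1, A34s, so no comparison was made. A34s had 396 CPM of SAG12, against 0.226 to 12.9 CPM in the T1 controls of Mav. In A34s, NCED3 was at 175 CPM, against 59.9, 71.4, 37.8 and 32.8 CPM in the T1 controls of Mav, and AAO3 at 53.8 CPM, against 11.9, 24.5, 28.7 and 10.5 CPM. CYP707A2 was at 9.56 CPM there and at 32.97, 17.99, 29.2 and 35.6 CPM in the controls. A34s was thus above all 4 controls for NCED3 and AAO3 and below them for CYP707A2.

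In Msu, NCED3 was higher in each droughted library at T1, and at T2 in S2s and S4s, the droughted libraries whose profile no control shared. At T1 it was at 58.5, 362 and 164 CPM in droughted plants, against 14.2, 12.4, 38.1 and 14.4 CPM in controls. The groups did not overlap, but the droughted libraries ranged widely and the change was not called (3.32 ± 0.64, adjusted p = 0.0637). Without S10s it was (3.74, adjusted p = 0.0198). None of 8 tested members was called at T1, 1 had an unadjusted p below 0.05, DESeq2 called 1 (NCED3), and 0.137% of all genes tested were called higher and 0.0305% lower.

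At T2, NCED3 was at 183, 117, 39.5 and 36.4 CPM in droughted S2s, S4s, S5s and S8s, against 14.1, 44.6 and 43.1 CPM in control S28c, S33c and S36c (1.48 ± 0.71, adjusted p = 0.999). AAO3 was split in the same way, with 57.97, 64.2, 12.5 and 12.96 CPM in droughted plants and 34.03, 13.1 and 14.2 CPM in controls. CYP707A3 was at 6.79, 7.37, 97.2 and 97.2 CPM in droughted plants, against 5.18, 96.1 and 96.2 CPM in controls. S5s and S8s had the CYP707A3 level of S33c and S36c, and these 4 had the highest values of CYP707A3 in the series.

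No member was called at T2 in Msu, none had an unadjusted p below 0.05, DESeq2 called none, and 0% of all genes tested were called higher and 0% lower. Leaving out all 4 such libraries, a choice made after seeing the data, left S2s and S4s against S28c, and NCED3 differed by 3.42 ± 0.47 (adjusted p = 0.150). In a further comparison chosen after seeing the data, S2s and S4s were set against the T0 controls of Msu, and 5 members were called. NCED3 (1.56 ± 0.37, adjusted p = 0.0207), AAO3 (1.19 ± 0.26, adjusted p = 0.0154) and CYP707A3 (4.31 ± 0.42, adjusted p = 7.02e-04) were higher. NCED5 (-4.24 ± 0.65, adjusted p = 0.00408) and CYP707A1 (-2.11 ± 0.47, adjusted p = 0.0160) were lower. Time since T0 and drought cannot be told apart there.

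**Figure D3:**
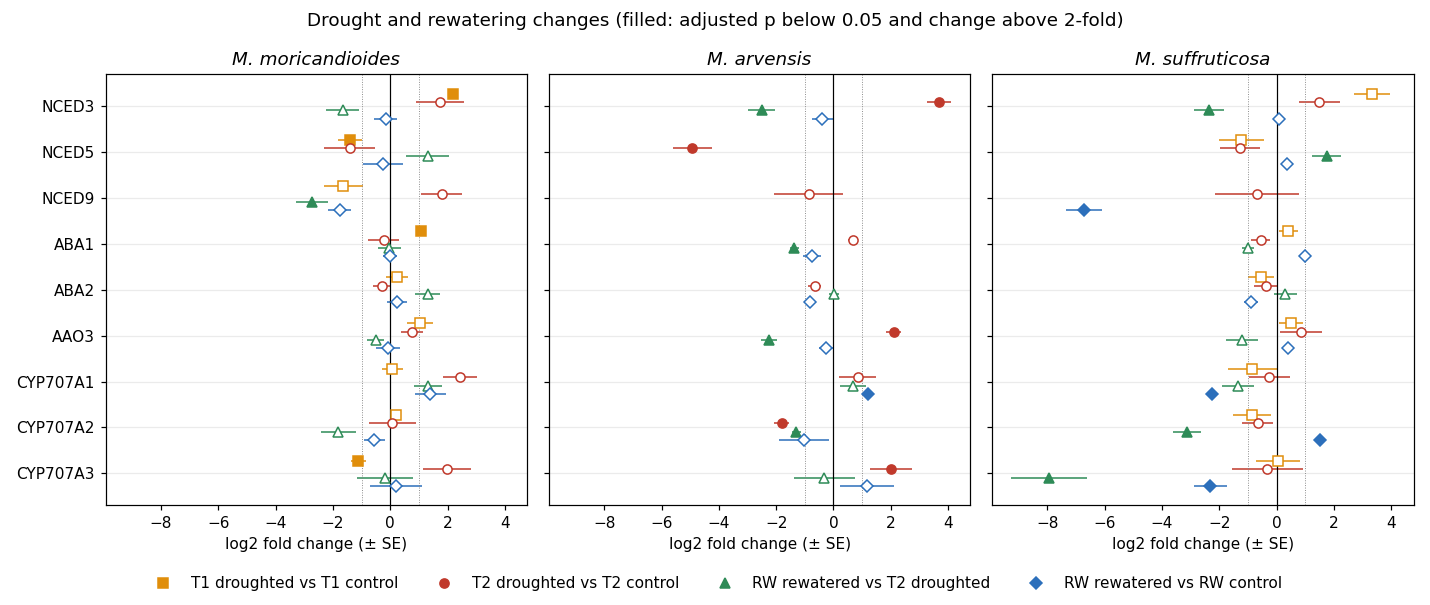
Log2 fold change ± SE (horizontal) of the members tested in each comparison, in 4 comparisons for Mmo and Msu and 3 for Mav, whose T1 drought had 1 library; filled symbols passed both thresholds, open symbols did not, and dotted lines mark a 2-fold change. NCED3 lay to the right under drought and, in rewatered against T2 droughted leaves, to the left in each species, with filled symbols for T1 in Mmo, for T2 and rewatered against T2 in Mav, and for rewatered against T2 in Msu.

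After rewatering, NCED3 was lower than in T2 droughted leaves in Mav and Msu, and AAO3 and ABA1 were also lower in Mav. In Mav, NCED3 was at 32.5, 29.5, 71.4 and 28.7 CPM in rewatered leaves, against 277, 97.6, 119.9, 389 and 290.2 CPM in T2 droughted leaves (-2.51 ± 0.47, adjusted p = 0.00140). AAO3 was at 11.9, 11.6, 15.5 and 10.8 CPM, against 81.2, 37.7, 41.9, 53.4 and 87.6 CPM (-2.25 ± 0.29, adjusted p = 1.15e-04), and ABA1 at 479.9, 502, 613 and 495 CPM, against 1402, 1224, 1336, 1333 and 1554 CPM (-1.37 ± 0.15, adjusted p = 4.40e-05). None of these groups overlapped. CYP707A2 was lower too, at 5.66 to 7.49 CPM in rewatered and 13.8 to 19.8 CPM in T2 droughted leaves (-1.29 ± 0.16, adjusted p = 9.95e-05).

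Of 7 members tested in Mav, none was called higher and 4 lower after rewatering, while 17.8% of all genes tested were called higher and 15.7% lower. In these groups, mesophyll sums were at 28202 to 34764 CPM in rewatered and 9148 to 13596 CPM in T2 droughted Mav, and SAG12 at 0.767 to 2.09 and 52.6 to 608 CPM, both without overlap. What part these markers had was not tested. With near-identical libraries summed, NCED3 was not called (-2.12 ± 0.68, adjusted p = 0.0630), whereas ABA1, AAO3 and CYP707A2 were. CYP707A1 was called higher only without A37s (1.28, adjusted p = 0.00578, against 0.68 ± 0.46, adjusted p = 0.253 with it). Controls also differed between RW and T2: CYP707A2 was at 49.1, 2.04, 2.14, 4.56 and 8.37 CPM in RW controls, against 41.4, 47.2, 34.7, 90.3 and 64.5 CPM in T2 controls. With the change between controls subtracted, NCED3 (-4.10 ± 0.60, adjusted p = 7.00e-05), ABA1 (-1.47 ± 0.35, adjusted p = 0.00370) and AAO3 (-2.38 ± 0.39, adjusted p = 2.02e-04) were called lower, and CYP707A2 turned to 0.74 ± 0.91 (adjusted p = 0.568).

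In Mmo, NCED3 was at 35.8, 28.96, 26.2 and 25.03 CPM in rewatered leaves, against 131, 127 and 19.2 CPM in T2 droughted leaves, and missed the threshold (-1.67 ± 0.57, adjusted p = 0.0653). Without M20s it was called lower (-2.15, adjusted p = 4.72e-04), as was CYP707A2 (-2.31, adjusted p = 5.57e-04), and CYP707A1 was called higher (1.76, adjusted p = 0.0468). NCED9 alone was called with all libraries, at 0.741, 1.42, 1.45 and 1.05 CPM in rewatered and 11.4, 9.77 and 2.20 CPM in T2 droughted leaves (-2.73 ± 0.55, adjusted p = 0.0107). With near-identical libraries summed it was not (-2.60 ± 0.91, adjusted p = 0.283). CYP707A1 was at 9.14, 29.3, 29.7 and 33.1 CPM in rewatered leaves, with M25s apart from M26s, M27s and M28s, against 8.12, 6.83 and 15.7 CPM in T2 droughted leaves (1.305 ± 0.48, adjusted p = 0.0849). Without M25s this change was called (1.59, adjusted p = 0.00932). None of 9 tested members was called higher and 1 lower, while 7.71% of all genes tested were called higher and 10.1% lower. Guard cell sums were at 169 to 229 CPM in rewatered and 60.3 to 106 CPM in T2 droughted Mmo, without overlap, while mesophyll sums overlapped. Their part in the result was not tested. All 4 rewatered Mmo libraries came from lane 7, so lane and group cannot be told apart in them.

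In Msu, NCED3 was at 21.2, 15.8, 17.1 and 21.7 CPM in rewatered leaves, against 183, 117, 39.5 and 36.4 CPM in T2 droughted leaves (-2.35 ± 0.52, adjusted p = 0.0143, and -3.04 ± 0.22, adjusted p = 1.29e-04 without S5s and S8s). CYP707A3 was barely detected after rewatering, with 7, 3, 3 and 13 counts, against 249, 174, 3081 and 2346 counts in T2 droughted leaves (-7.94 ± 1.33, adjusted p = 0.00454). Without S5s and S8s the change was smaller but was called (-5.05 ± 0.65, adjusted p = 0.00126). The RW libraries were thus below even S2s and S4s by a wide margin.

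CYP707A2 was at 19.7 to 22.4 CPM in rewatered and 189, 46.1, 241 and 244 CPM in T2 droughted Msu (-3.13 ± 0.48, adjusted p = 0.00337, and -2.52 ± 0.46, adjusted p = 0.00516 without S5s and S8s). NCED5 rose, with 2.14, 2.14, 1.85 and 1.91 CPM in rewatered leaves, against 0.437, 0.127, 0.978 and 0.745 CPM (1.74 ± 0.52, adjusted p = 0.0408, and 2.70 ± 0.50, adjusted p = 0.00544 without S5s and S8s). The NCED5 call was lost without any one of rewatered S1s, S2s, S3s and S4s or of T2 droughted S2s and S8s (adjusted p = 0.0618 to 0.0952). AAO3 was at 13.1, 19.7, 17.97 and 14.8 CPM in rewatered leaves, against 57.97, 64.2, 12.5 and 12.96 CPM, and was called lower only without S5s and S8s (-1.95 ± 0.18, adjusted p = 3.16e-04, against -1.21 ± 0.55, adjusted p = 0.142 with them). S5s and S8s were thus the highest T2 libraries for NCED5 and the lowest for AAO3. ABA2 was called higher without them (1.08 ± 0.33, adjusted p = 0.0357, against 0.30 ± 0.40, adjusted p = 0.608 with them). ABA1 (-0.9997 ± 0.20, adjusted p = 0.00920) passed the fold threshold without T2 droughted S2s or S4s or rewatered S2s or S3s, with log2 fold changes of -1.12 to -1.01. CYP707A1 (-1.35 ± 0.56, adjusted p = 0.110) was called lower without T2 droughted S2s or S4s (adjusted p = 0.0447 to 0.0476).

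Of 8 members tested in Msu, 1 was called higher and 3 lower after rewatering, and 6 in all without S5s and S8s, while 6.85% of all genes tested were called higher and 10.3% lower. None of the calls held when near-identical libraries were summed, which left 2 rewatered profiles against 3 (NCED3 -2.60 ± 0.70, adjusted p = 0.167). SUC2 was at 94.7 to 102 CPM in rewatered and 242 to 482 CPM in T2 droughted Msu, without overlap. What part these markers had was not tested. With the change between Msu controls subtracted, CYP707A2 turned to 2.19 ± 0.60 (adjusted p = 0.0284), a value that rests on controls of which 5 of 6 resembled Mmo.

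**Figure D4:**
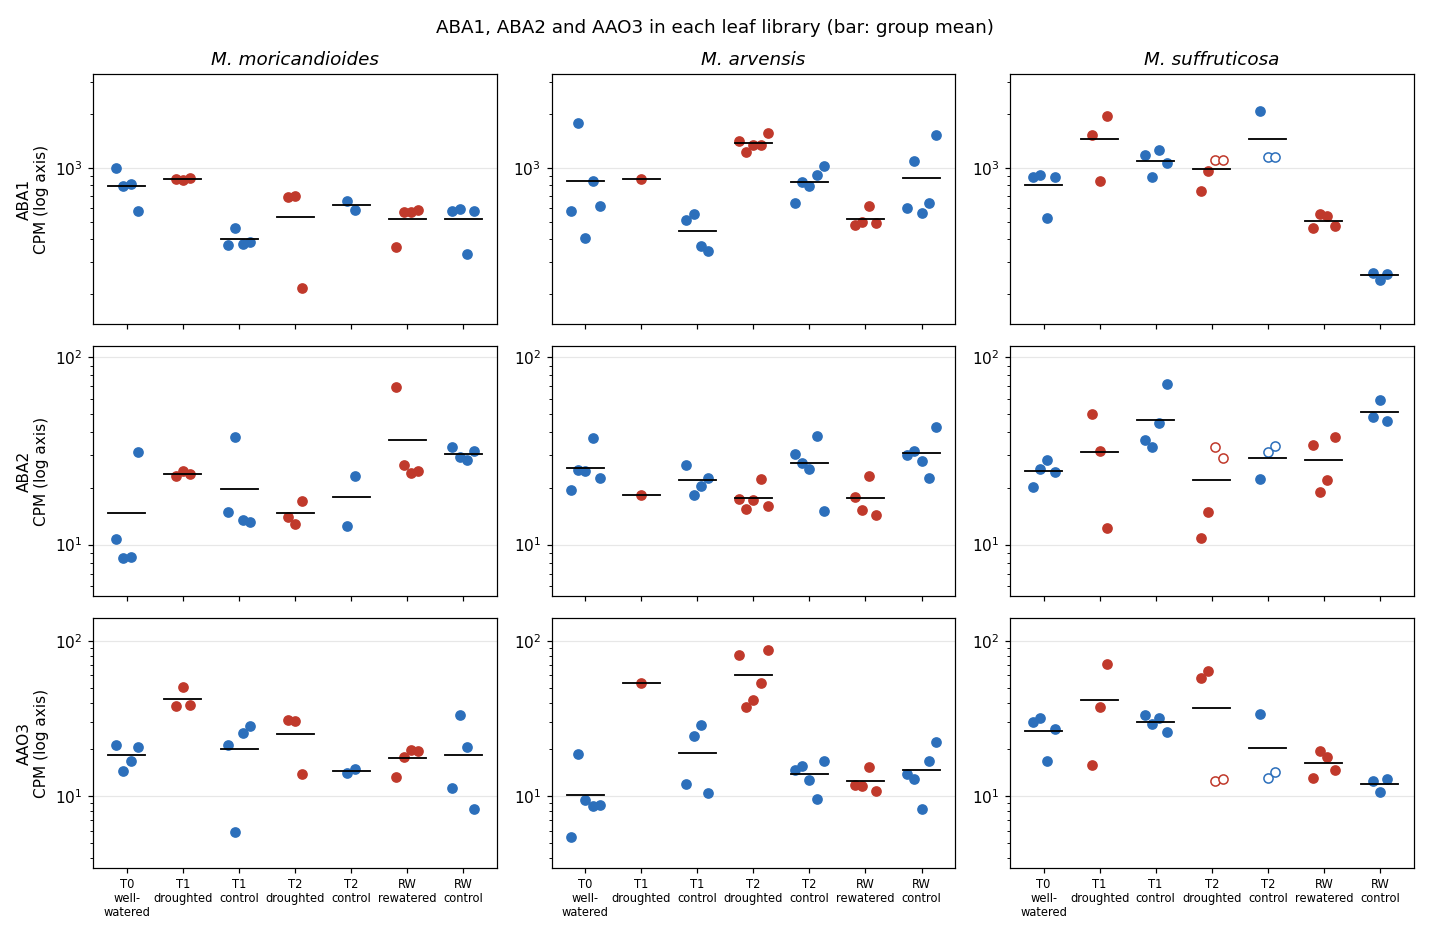
ABA1, ABA2 and AAO3 (rows) in every library of the 3 species (columns), in CPM on log axes, by time and treatment; colours, bars and open points are as in the plot of NCED3. AAO3 in T2 droughted Mav lay at 37.7 to 87.6 CPM, above its T2 controls and above rewatered Mav at 10.8 to 15.5 CPM.

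Rewatered leaves were also set against RW controls that had not been droughted. There NCED3 was called in none of the species. NCED3 was at 35.8, 28.96, 26.2 and 25.03 CPM in rewatered Mmo, against 30.6, 12.98, 58.3 and 26.7 CPM in RW controls (-0.16 ± 0.40, adjusted p = 0.843). In Mav it was at 32.5, 29.5, 71.4 and 28.7 CPM, against 75.97, 49.8, 38.2, 72.7 and 27.2 CPM (-0.38 ± 0.37, adjusted p = 0.597), and in Msu at 21.2, 15.8, 17.1 and 21.7 CPM, against 17.5, 15.9 and 18.2 CPM (0.10 ± 0.13, adjusted p = 0.545). The groups overlapped in each species.

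Of the breakdown genes, CYP707A1 was called in Mav. It rose to 17.6, 19.5, 24.1 and 20.3 CPM in rewatered leaves, against 7.13, 10.5, 10.3, 6.90 and 9.16 CPM in RW controls, with all rewatered libraries above all controls (1.202 ± 0.19, adjusted p = 0.0407). The call was lost without any one of A8c, A10c, A13c, A17c, A30s, A38s and A42s (adjusted p = 0.0575 to 0.162), with a log2 fold change of 1.12 to 1.29, and when near-identical libraries were summed (1.31 ± 0.25, adjusted p = 0.850). In Mmo, M26s, M27s and M28s were at 29.3, 29.7 and 33.1 CPM and M25s at 9.14 CPM, against 4.76, 8.64, 19.1 and 5.37 CPM in controls (1.40 ± 0.54, adjusted p = 0.215). Against the T0 controls, Mav differed by -0.05 ± 0.39 (adjusted p = 0.935).

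A40s stood apart from the other rewatered Mav libraries, which were near-identical. It had 71.4 CPM of NCED3, against 28.7 to 32.5 CPM in A30s, A38s and A42s, and 46.8 CPM of CYP707A3, against 2.53 to 3.89 CPM. Among rewatered Mmo, M25s had 6 counts of CYP707A3, against 5.48 to 6.13 CPM in the other 3 libraries. CYP707A3 was called in neither species (1.19 ± 0.94, adjusted p = 0.517 in Mav and 0.20 ± 0.89, adjusted p = 0.916 in Mmo).

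In Mmo, no member was called against RW controls, 2 of 9 had an unadjusted p below 0.05, DESeq2 called 1, and 0.0669% of all genes tested were called higher and 0.113% lower. NCED9 was called lower in Mmo without M23c (-2.02, adjusted p = 0.0230). In Mav, 1 of 7 was called higher and none lower, and 0.173% of all genes tested were called higher and 0.0917% lower. Msu gave 1 member higher (CYP707A2) and 3 lower (NCED9, CYP707A1 and CYP707A3), but there 15.6% of all genes tested were called higher and 15.9% lower, and its 3 RW controls were among the libraries that resembled Mmo. Guard cell sums were at 47.9 to 77.5 CPM in rewatered Msu and 175 to 192 CPM in these controls. CYP707A1 was at 4.17, 3.42, 3.52 and 4.3 CPM in rewatered Msu, against 18.4, 17.2 and 17.9 CPM in those controls (-2.25 ± 0.12, adjusted p = 2.23e-06). NCED9, which Mmo expressed and Msu nearly lacked at T0, had 0, 0, 0 and 1 counts in rewatered Msu, against 39, 36 and 49 in the controls, which were 170.1-fold (exact 95% interval 29.97 to 6771) higher at equal depth. CYP707A3 had 7, 3, 3 and 13 counts in rewatered Msu, against 53, 28 and 33 in the controls (-2.32 ± 0.58, adjusted p = 0.00771). No RW control of Msu was left once these 3 were set aside, so the T0 controls were used in their place. Against them, CYP707A1 (-1.94 ± 0.32, adjusted p = 0.00290), NCED3 (-1.43 ± 0.27, adjusted p = 0.00506) and NCED5 (-1.50 ± 0.28, adjusted p = 0.00512) were called lower. CYP707A2 was lower too (-1.297 ± 0.11, adjusted p = 1.22e-04), the reverse of its direction against RW controls (1.52 ± 0.14, adjusted p = 3.94e-05). In the fit against T0 controls, time since T0 and earlier drought cannot be told apart. For NCED3, all rewatered Msu libraries lay within the range of the T1 controls of Msu.

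**Figure D5:**
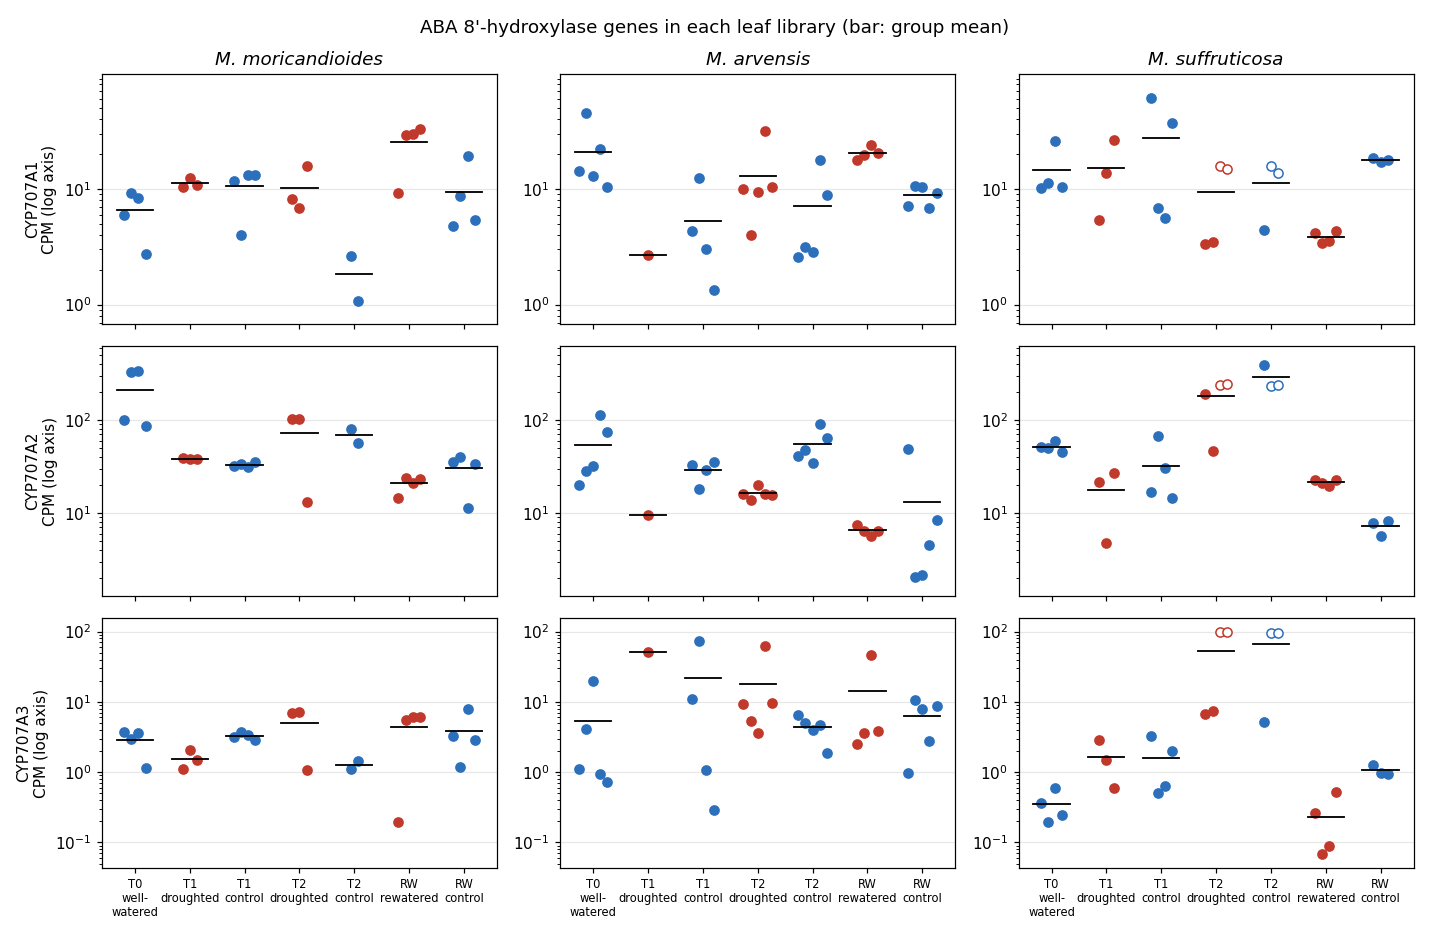
CYP707A1, CYP707A2 and CYP707A3 (rows) in every library of the 3 species (columns), in CPM on log axes, by time and treatment; colours, bars and open points are as in the plot of NCED3. CYP707A1 in rewatered Mav lay at 17.6 to 24.1 CPM, above its RW controls at 6.90 to 10.5 CPM, and the 4 open points of CYP707A3 in Msu lay at 96.1 to 97.2 CPM.

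The C3 and the C2 species were then compared under drought and after rewatering. At T2, droughted Mmo had less ABA1 (690.3, 695 and 216 CPM) than droughted Mav (1402, 1224, 1336, 1333 and 1554 CPM; -1.36 ± 0.37, adjusted p = 0.0160) and less AAO3 (13.9 to 30.9 against 37.7 to 87.6 CPM; -1.27 ± 0.38, adjusted p = 0.0236), but more CYP707A2 (13.3 to 104 against 13.8 to 19.8 CPM; 2.17 ± 0.50, adjusted p = 0.00757). Without M20s, neither ABA1 (-0.99, adjusted p = 0.00399) nor AAO3 (-0.99, adjusted p = 0.0702) was called. NCED3 was at 19.2 to 131 CPM in Mmo and 97.6 to 389 CPM in Mav (-1.35 ± 0.65, adjusted p = 0.124). NCED9 was called higher in Mmo only without A37s (5.16, adjusted p = 0.00318). With near-identical libraries summed, none was called (CYP707A2 1.85 ± 0.62, adjusted p = 0.0646). Mesophyll sums were at 16802 to 29583 CPM in Mmo and 9148 to 13596 CPM in Mav, and SAG12 at 13.8 to 27.6 and 52.6 to 608 CPM. SUC2 was at 101 to 240 CPM in Mmo and 246 to 411 CPM in Mav, also without overlap. Their part in the result was not tested. Of 8 members tested, 1 was higher and 2 lower in Mmo, while 17% of all genes tested were called higher and 15.2% lower.

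The drought response itself, the change from controls in Mmo minus that in Mav, was called different for none of 9 members; 4 had an unadjusted p below 0.05, DESeq2 called 1, and 2.76% of all genes tested were called higher and 2.43% lower. The difference was -1.96 ± 0.82 (adjusted p = 0.178) for NCED3, -1.35 ± 0.48 (adjusted p = 0.114) for AAO3 and 1.87 ± 0.74 (adjusted p = 0.152) for CYP707A2, of which the last was called without M20s (2.37, adjusted p = 0.0109). The calls in Mav and their absence in Mmo therefore do not show that the species differed.

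After rewatering, Mmo had more NCED5 (0.739 to 2.09 CPM) than Mav (0.0367 to 0.246 CPM; 3.22 ± 0.64, adjusted p = 0.00268), more NCED9 (23, 58, 49 and 38 against 1, 0, 4 and 0 counts; 4.76 ± 0.69, adjusted p = 5.14e-04) and more CYP707A2 (14.7 to 23.7 against 5.66 to 7.49 CPM; 1.65 ± 0.17, adjusted p = 1.04e-04). ABA2 was higher as well (24.2 to 69 against 14.4 to 23.1 CPM; 1.01 ± 0.37, adjusted p = 0.0434). The ABA2 call was lost without M25s (0.49, adjusted p = 0.0292), A30s (1.01, adjusted p = 0.0890), A38s (0.94, adjusted p = 0.104) or A42s (0.92, adjusted p = 0.106). Thus 4 of 9 tested members were called higher and none lower in Mmo, where 17.1% of all genes tested were called higher and 18.1% lower. Guard cell sums were at 169 to 229 CPM in rewatered Mmo and 55.5 to 84.0 CPM in rewatered Mav, and SUC2 at 194 to 202 and 217 to 310 CPM. What part these markers had was not tested. With near-identical libraries summed, none of these was called (adjusted p = 0.0674 to 0.911).

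The change on rewatering in Mmo minus that in Mav was 1.37 ± 0.41 (adjusted p = 0.0229) for ABA1, 1.32 ± 0.43 (adjusted p = 0.0346) for ABA2 and 1.78 ± 0.43 (adjusted p = 0.00683) for AAO3. For ABA1 and AAO3 this set -0.04 ± 0.41 (adjusted p = 0.957) and -0.51 ± 0.29 (adjusted p = 0.227) in Mmo against the falls in Mav given above. For ABA2, RW against T2 was 1.31 ± 0.43 (adjusted p = 0.0584) in Mmo and 0.03 ± 0.18 (adjusted p = 0.922) in Mav. These 3 were called higher and none lower of 9 tested, while 10.4% of all genes tested were called higher and 11.4% lower. ABA1 did not pass the fold threshold without M20s (0.996, adjusted p = 0.0106) nor ABA2 without M25s (0.79, adjusted p = 0.0285). ABA2 was also lost without any one of A30s, A38s, A42s, A37s, M17s and M19s (adjusted p up to 0.0856), and none of the 3 was called with near-identical libraries summed (AAO3 1.56 ± 0.65, adjusted p = 0.268). Against Msu, the rewatering change of CYP707A3 differed in Mmo (7.76 ± 1.73, adjusted p = 0.0125) and in Mav (7.61 ± 1.79, adjusted p = 0.00535). Without S5s and S8s these values were 4.86 ± 1.40 (adjusted p = 0.0317) for Mmo minus Msu and 4.72 ± 1.65 (adjusted p = 0.0519) for Mav minus Msu, so the Mav difference was then not called. CYP707A1 differed between Mmo and Msu (2.65 ± 0.79, adjusted p = 0.0415, and 1.18 ± 0.59, adjusted p = 0.177 without S5s and S8s). That call was lost in 11 of 15 fits that left out 1 library, M26s to M28s, M17s, M19s and every Msu library but T2 droughted S2s and S4s among them (adjusted p up to 0.0938). CYP707A2 differed between Mav and Msu (1.83 ± 0.46, adjusted p = 0.00809, and 1.21 ± 0.44, adjusted p = 0.0628 without S5s and S8s). CYP707A1 differed there only without A37s (2.63, adjusted p = 0.00810) or T2 droughted S2s (2.28, adjusted p = 0.0249) or S4s (2.28, adjusted p = 0.0258). In Mmo minus Msu, 2 of 9 members were called higher and none lower, and 6.74% of all genes tested were called higher and 4.92% lower. In Mav minus Msu, likewise 2 of 9 were higher and none lower, and 15.6% of all genes tested were called higher and 9.55% lower. These comparisons share the T2 and RW libraries of a species with those above.

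Genes on either side of these enzymes were counted from lists of the pathway, against the shares of all genes given above. Of 15 genes that ABA induces (among them RD29A, RD29B, RAB18 and HAI1), 14 were called higher in T2 droughted Mav, 9 in T2 droughted Mmo and 11 in T1 droughted Mmo, where COR15A was called lower. After rewatering 14 were lower than at T2 in Mav, 14 in Mmo and 5 in Msu. The median log2 fold changes of the list at T2 were 3.48 in Mav and 2.41 in Mmo, beside -0.01 and 0.02 over all genes. Of the PYR/PYL receptor genes, 4 of 9 were called lower in T2 droughted Mav and 3 of 8 tested in Mmo, with none higher, and 7 of 9 were called higher after rewatering in Mav and 6 of 8 in Mmo.

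A relative of the members, CYP707A4, also an ABA 8'-hydroxylase gene, was at 46.8, 36.97, 31.5, 40.2 and 46.3 CPM in T2 droughted Mav, against 1.52, 5.91, 8.58, 5.36 and 3.14 CPM in its controls (3.02 ± 0.38, adjusted p = 1.17e-04). In Mmo at T1 it rose by a log2 fold change of 1.65 ± 0.21 (adjusted p = 0.00151). After rewatering it was lower than at T2 in Mav (-4.45 ± 0.28, adjusted p = 1.63e-06), Mmo (-3.54 ± 0.31, adjusted p = 4.21e-04) and Msu (-5.32 ± 1.01, adjusted p = 0.00753), where S5s and S8s were among the T2 libraries. Of the 4 CYP707A genes it was the one called higher under drought in both Mmo and Mav with all libraries. AAO4, an aldehyde oxidase related to AAO3, was at 48.9, 70.98, 64.2, 147 and 53.3 CPM in T2 droughted Mav, against 11.9, 8.90, 13.2, 7.97 and 7.11 CPM (2.94 ± 0.33, adjusted p = 4.77e-05), and at 35.8, 30.5 and 52.8 CPM in T2 droughted Mmo, against 3.95 and 0.896 CPM (4.01 ± 0.70, adjusted p = 0.0404). M20s had the highest AAO4 of the 3 droughted Mmo libraries.

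Of 13 genes of the carotenoid route around ABA1, 5 were lower and none higher in T2 droughted Mav, among them ABA4, needed for neoxanthin (-2.43 ± 0.43, adjusted p = 9.45e-04). After rewatering ABA4 was higher than at T2 in Mav (3.50 ± 0.33, adjusted p = 1.81e-05) and Mmo (2.102 ± 0.32, adjusted p = 0.00371). BCH1 and BCH2, the beta-carotene hydroxylases, were lower after rewatering than at T2 in all species, with values for BCH1 of -2.33 ± 0.16 (adjusted p = 2.65e-06) in Mav, -1.95 ± 0.43 (adjusted p = 0.0155) in Mmo and -1.19 ± 0.32 (adjusted p = 0.0279) in Msu. Among 4 transport genes, ABCG25, an ABA exporter, was higher in T2 droughted Mav (2.02 ± 0.18, adjusted p = 1.35e-05) and T1 droughted Mmo (1.24 ± 0.19, adjusted p = 0.00321). Of 6 genes of glucose conjugation and its release, BGLU18, a glucosidase that frees ABA, was lower in T2 droughted Mav (-1.64 ± 0.52, adjusted p = 0.0246) and T1 droughted Mmo (-4.70 ± 0.26, adjusted p = 8.25e-05). In Mmo it was at 178, 128 and 196 CPM in T1 droughted plants, against 3952, 4781, 4060.3 and 4255 CPM in T1 controls and 114, 28.4, 27.4 and 651 CPM at T0. The T1 controls thus stood far above T0, and the droughted plants lay within the T0 range.

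The pattern of NCED3 over the 21 group means, centred within each species, was most like that of AT1G07430 (HAI2, a phosphatase of ABA signalling), AT1G47960, AT3G61960, AT3G11410 and AT3G09910, with Pearson's r of 0.898, 0.885, 0.879, 0.874 and 0.870 among 16427 genes. Among members, r with NCED3 was 0.77 for AAO3, 0.43 for ABA1, 0.30 for CYP707A3 and -0.15 for CYP707A2. For CYP707A3 the most like genes were AT5G47230, AT5G22250, AT3G44260, AT1G32920 and AT5G07070, with r of 0.926 to 0.936. The means share libraries within a species and near-identical profiles, and the Msu means hold the 4 libraries that stood apart, so these values are a description.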

How the data were processed

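Total RNA of mature leaves was sequenced on an Illumina HiSeq2000. The authors mapped reads with BLAT in protein space on the minimal Arabidopsis coding set (TAIR10), keeping best-scoring mappings only, and deposited estimated counts and TPM values for each library. Reads that fit several NCED or CYP707A genes equally well could be counted on any of them, and whether strand was used is not given in the sources used here. In a median library, 2656 features had an estimated count of 0 but a TPM above 0.

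The estimated counts, which were whole numbers as deposited, were tested with edgeR 4.0.16 in R 4.3.3 (filterByExpr, TMM, glmQLFTest). Each fit held only the groups compared, with Benjamini-Hochberg adjustment over all genes tested. Calls needed an adjusted p below 0.05 and an absolute log2 fold change above 1. Alternatives were DESeq2 1.42.0, limma 3.58.1 on log2(TPM + 1) and log2(TPM + 0.1), other size factors, no filter, adjusted p below 0.01, other controls, summed near-identical libraries, and libraries left out. The fits were tested on simulated data. All 10 members were named; likeness used log2(CPM + 0.5) for genes with a mean of at least 1 CPM in each species. The members and lists were chosen with earlier results of these data known. The labels call each library a biological replicate, and the near-identical ones were kept as separate libraries unless stated, so p-values then rest on fewer distinct profiles than libraries. Depth was 22346621 to 41675513 counts per library, and pooled-count ratios have exact binomial 95% intervals. T1 droughted Mav (1 library) entered no test.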

Additional observations from a re-analysis of the deposited data

Results flagged for a closer look

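In 28 of 117 sets of 4 or 5 libraries of a group, for members with at least 30 counts, the highest or the lowest library was farther from the others than Dixon's 95% critical value allows. Chance flags about 1 in 20 such sets, and in several of these groups the other libraries were near-identical. Among rewatered plants, the libraries that stood apart were A40s (Mav rewatered) for NCED3 at 71.4 CPM, ABA1 at 613 CPM and CYP707A3 at 46.8 CPM, and M25s (Mmo rewatered) for NCED5 at 2.09 CPM, ABA1 at 364 CPM, ABA2 at 69 CPM, CYP707A1 at 9.14 CPM and CYP707A3 at 0.193 CPM. In T2 droughted plants it was A37s (Mav T2 droughted) for NCED9 at 3.80 CPM, CYP707A1 at 31.5 CPM and CYP707A3 at 63.1 CPM. In RW controls these were A6c (Mav RW control) for NCED5 at 10.2 CPM and CYP707A2 at 49.1 CPM, and M23c (Mmo RW control) for ABA1 at 331 CPM. In T1 controls these were S26c (Msu T1 control) for NCED3 at 38.1 CPM, and M6c (Mmo T1 control) for NCED5 at 1.92 CPM, ABA1 at 465 CPM, ABA2 at 37.4 CPM and CYP707A1 at 4.02 CPM, and A11c (Mav T1 control) for CYP707A3 at 74.4 CPM. In T0 plants these were S42 (Msu T0 control) for NCED3 at 25.2 CPM, NCED5 at 2.74 CPM, ABA1 at 529 CPM and CYP707A1 at 26.1 CPM, and M12c (Mmo T0 control) for NCED2 at 1.52 CPM and ABA2 at 31.02 CPM, and A45 (Mav T0 control) for NCED9 at 1.17 CPM and CYP707A3 at 20.0 CPM.

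The change on rewatering differed between species by the test of the difference itself, on the log2 scale, in Mmo minus Mav for ABA1 (1.37), ABA2 (1.32) and AAO3 (1.78), in Mmo minus Msu for CYP707A1 (2.65) and CYP707A3 (7.76) and in Mav minus Msu for CYP707A2 (1.83) and CYP707A3 (7.61). No direction was reversed when single libraries were left out, but the Msu values fell in size without S5s and S8s, to 4.86 for CYP707A3 in Mmo minus Msu and 4.72 in Mav minus Msu.

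The single T1 droughted library of Mav, A34s, entered no comparison. In it NCED3 was at 175 CPM, NCED2 was at 0.230 CPM, NCED9 was at 2.003 CPM, ABA1 was at 865 CPM and AAO3 was at 53.8 CPM, each above all 4 T1 controls of Mav. With 1 library there is no estimate of the spread, and the difference was not tested.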

How the results depend on the processing

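The number of members called moved by over 1.5 times from the main count in these cases (main counts, in the order of the comparisons: 0 for T2 drought in Mmo, 5 for T2 drought in Mav, 0 for T2 drought in Msu, 4 for T1 drought in Mmo, 0 for T1 drought in Msu, 1 for RW against T2 in Mmo, 4 for RW against T2 in Mav, 4 for RW against T2 in Msu, 0 for RW against controls in Mmo, 1 for RW against controls in Mav, 4 for RW against controls in Msu, 4 for Mmo against Mav at T0, 6 for Mmo against Msu at T0, 2 for Mav against Msu at T0, 3 for Mmo against Mav at T2, 4 for Mmo against Mav at RW, 0 for the drought response of Mmo minus Mav, 3 for the rewatering change of Mmo minus Mav, 2 for the rewatering change of Mmo minus Msu and 2 for the rewatering change of Mav minus Msu). With DESeq2, it was 1 for T2 drought in Mmo, 1 for T1 drought in Msu, 5 for RW against T2 in Mmo, 1 for RW against controls in Mmo and 1 for the drought response of Mmo minus Mav. With T0 controls, it was 1 for T2 drought in Mmo, 3 for T2 drought in Msu, 3 for RW against controls in Mmo and 2 for RW against controls in Mav. With T0 controls and without S5s and S8s, a choice made after seeing the data, it was 5 for T2 drought in Msu. With adjusted p below 0.01, it was 2 for T1 drought in Mmo, 0 for RW against T2 in Mmo, 2 for RW against T2 in Msu, 0 for RW against controls in Mav, 2 for Mmo against Mav at T0, 0 for Mav against Msu at T0, 1 for Mmo against Mav at T2, 1 for the rewatering change of Mmo minus Mav and 0 for the rewatering change of Mmo minus Msu. With limma on log2(TPM + 1), it was 2 for T1 drought in Mmo, 2 for RW against T2 in Mmo, 1 for Mav against Msu at T0, 2 for Mmo against Mav at RW and 1 for the rewatering change of Mmo minus Msu. With near-identical libraries summed, it was 1 for T1 drought in Mmo, 0 for RW against T2 in Mmo, 0 for RW against T2 in Msu, 0 for RW against controls in Mav, 3 for Mmo against Msu at T0, 0 for Mav against Msu at T0, 0 for Mmo against Mav at T2, 0 for Mmo against Mav at RW, 0 for the rewatering change of Mmo minus Mav, 0 for the rewatering change of Mmo minus Msu and 0 for the rewatering change of Mav minus Msu. In one fit over all libraries, it was 2 for T1 drought in Mmo, 1 for T1 drought in Msu, 4 for RW against T2 in Mmo, 6 for Mmo against Mav at T2 and 1 for the rewatering change of Mav minus Msu. With no filter on low counts, it was 1 for T1 drought in Msu and 2 for RW against T2 in Mmo. With limma on log2(TPM + 0.1), it was 2 for RW against T2 in Mmo, 1 for Mav against Msu at T0, 1 for the rewatering change of Mmo minus Msu and 1 for the rewatering change of Mav minus Msu. With the change between controls subtracted, it was 0 for RW against T2 in Mmo and 2 for RW against T2 in Msu. Without lane 7, it was 0 for RW against controls in Mav. Without S5s and S8s, a choice made after seeing the data, it was 1 for the rewatering change of Mav minus Msu. Leaving out each library in turn, the count ranged from 0 to 5 for T2 drought in Mmo, from 2 to 5 for T1 drought in Mmo, from 0 to 1 for T1 drought in Msu, from 1 to 4 for RW against T2 in Mmo, from 0 to 1 for RW against controls in Mmo, from 0 to 1 for RW against controls in Mav, from 1 to 2 for Mav against Msu at T0, from 1 to 4 for Mmo against Mav at T2, from 0 to 1 for the drought response of Mmo minus Mav and from 1 to 2 for the rewatering change of Mmo minus Msu.

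S2s and S4s name Msu libraries at both T2 and RW, and the labels do not say that they were the same plants. The deviations from the group means correlated at 0.12 for S2s and -0.03 for S4s, so the names were not taken as pairs. A fit with the name as a replicate block called 3 members (NCED3, AAO3 and CYP707A3), against 4 without it. Directions reversed in 4 results: CYP707A2 in RW against T2 in Mav to 0.74 with the change between controls subtracted, CYP707A2 in RW against T2 in Msu to 2.19 with the change between controls subtracted, CYP707A1 in RW against controls in Mav to -0.054 with T0 controls and CYP707A2 in RW against controls in Msu to -1.30 with T0 controls. The causes were not tested. Lane 7 could not be left out for rewatered Mmo, all of whose libraries it holds. Counts of a few reads limit NCED2 throughout, NCED5 in some groups of each species and NCED9 in Mav and Msu. Pooled NCED5 counts in Mmo were 60 at T0, 55 in T1 droughted and 49 in T2 droughted plants.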

Other observations

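Well-watered controls also differed between sampling points, CYP707A2 among them. In control Mmo it was at 85.3 to 335 CPM at T0, 31.3 to 35.2 at T1, 56.7 to 79.9 at T2 and 11.3 to 40.4 at RW. In control Mav it was at 20.1 to 113 CPM at T0, 17.99 to 35.6 at T1, 34.7 to 90.3 at T2 and 2.04 to 49.1 at RW, with A6c the highest RW library. NCED3 in control Mmo was at 8.03 to 9.80 CPM at T0, 24.5 to 33.4 at T1, 19.4 to 35.5 at T2 and 12.98 to 58.3 at RW, so that all T1, T2 and RW controls were above all T0 libraries. In control Mav NCED3 was at 35.7 to 67.7 CPM at T0, 32.8 to 71.4 at T1, 9.80 to 26.4 at T2 and 27.2 to 75.97 at RW. NCED5 in Mav controls was at 3.03 to 5.57 CPM at T0, 0.784 to 2.64 at T1, 1.22 to 5.84 at T2 and 0.107 to 10.2 at RW. These changes were not tested, and the day of sampling cannot be told apart from plant age in them.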
